A study of Mus musculus with 53 samples.

Results

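Prss22, Arhgap40, Atg9b and Styk1 were followed across 53 libraries of whole mouse intestine in 11 groups, 4 of the 55421 genes in the count table, chosen by symbol from genes that earlier results had marked as specific to BA mice. In 3 of them, Prss22, Arhgap40 and Atg9b, the level in BA tissue was far above that of WT tissue, but these 3 were also above WT in Apc fl/+ tumours, so the term BA-specific goes against the data. Styk1 was not above WT in BA tissue. The genes are therefore called by name.

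All mice carried VilCreER, a tamoxifen-inducible recombinase driven by the villin promoter and active in intestinal epithelium, also in the WT groups. BA mice carried BrafV600E/+, which encodes a constitutively active BRAF kinase, and Alk5fl/fl, the floxed gene (Tgfbr1) of a TGFβ receptor, whereas A mice carried Alk5fl/fl without the Braf allele. Proximal colon was taken from BA primary tumours (n = 4) and WT mice (n = 3) and, at day 30 post induction, from BA mice (n = 5), BA mice given drinking water with ampicillin at 1 g/L, neomycin trisulphate at 1 g/L, vancomycin at 500 mg/L and metronidazole at 1 g/L (n = 5), A mice (n = 4), A mice given sulindac at 0.4 g/L for 14 days and then plain water (n = 4) and WT mice (n = 4). Small intestine was taken from Apcfl/+ primary tumours (n = 5) and WT mice (n = 3) and, at day 4, from Apcfl/fl mice (n = 10) and WT mice (n = 6). Mice were induced as adults. The labels give an inbred C57BL6/J background for the tumours and WT tissue of the Apcfl/+ set and a mixed C57BL/6J one for all other groups, whereas the study's methods describe a single C57BL/6J background. No group carried the Braf allele alone, so an effect of BRAF activation without Alk5 loss is not measured here.

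Library totals ran from 516985 to 32824795 reads on genes with a median of 18356939, and the smallest was Apc fl/fl replicate 1, where 3 counts correspond to 5.80 CPM. Levels are given as CPM scaled by TMM over all 53 libraries (normalised CPM), differences as fold change on the log2 scale (log2FC) with its standard error (SE), and intervals on counts cover counting error only. Gene counts cannot tell intact from recombined transcripts, and Tgfbr1, at 32.3 to 59.6 in A and 34.7 to 66.1 in WT mice at day 30, did not separate these groups. Ddx3y, a Y-linked gene, was over 10 CPM in 3 of 4 BA tumours and 0 of 3 WT proximal colons. It was over 10 CPM in 1 of 5 Apc fl/+ tumours and 3 of 3 WT small intestines. At day 4 this held in 4 of 10 Apc fl/fl and 4 of 6 WT mice, and at day 30 in every mouse. Sex was not part of any fit, and its part in the tumour contrasts was not tested. Epcam and the other markers of a 10-gene epithelial list were detected in every group. In whole tissue, fewer cells of a type and less RNA per cell cannot be told apart.

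Prss22 (ENSMUSG00000045027) encodes a secreted trypsin-like serine protease of the tryptase family, known to activate pro-urokinase, and lies on chr17:23993534-23998100 of GRCm38 on the minus strand. Arhgap40 (ENSMUSG00000074625), on chr2:158512796-158550762 on the plus strand, encodes a protein with a RhoGAP domain, the domain by which such proteins return small GTPases to their inactive state. Atg9b (ENSMUSG00000038295), on chr5:24384181-24392143 on the minus strand, encodes a paralogue of ATG9A, a membrane protein that delivers lipid to growing autophagosomes. Styk1 (ENSMUSG00000032899), on chr6:131299142-131353597 on the minus strand, encodes a membrane protein with a kinase-like domain related to receptor tyrosine kinases. BRAF is the kinase above MEK and ERK, and ERK output genes such as Dusp6 and Etv4 are commonly read as a measure of that pathway.

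The bases before the start site are shown for Arhgap40 and Atg9b, the members with an entry in the RefSeq promoter table (GRCm38.p6), because both were far above WT in BA tumours. Each sequence holds 250 bases, 5′ to 3′ on the strand of the gene, from chr2:158512546-158512795 and chr5:24392144-24392393, and capitals mark matches on either strand to an AP-1 motif (TGANTCA), a TEAD motif (CATTCC), a TCF/LEF motif (CTTTGAT) or an ETS motif (GGAAGT).
Arhgap40: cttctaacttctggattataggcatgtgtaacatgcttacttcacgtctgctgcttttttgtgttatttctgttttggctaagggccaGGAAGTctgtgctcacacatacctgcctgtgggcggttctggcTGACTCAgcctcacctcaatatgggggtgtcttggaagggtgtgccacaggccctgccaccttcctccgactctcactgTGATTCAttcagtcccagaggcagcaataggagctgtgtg
Atg9b: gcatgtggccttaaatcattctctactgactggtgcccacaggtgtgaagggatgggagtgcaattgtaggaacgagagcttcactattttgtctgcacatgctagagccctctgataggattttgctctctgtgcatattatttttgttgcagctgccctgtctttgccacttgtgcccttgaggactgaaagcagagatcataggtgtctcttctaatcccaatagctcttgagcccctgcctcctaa
Arhgap40 held AP-1 matches from 119 to 113 and from 40 to 34 bases before the start and an ETS match from 162 to 157 bases before it. None of these letters matched in the Atg9b window. Of 32851 promoters of the same length, 6.75% held the AP-1 motif, 12.6% the TEAD motif, 3.21% the TCF/LEF motif and 19.7% the ETS motif.

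**Figure D1:**
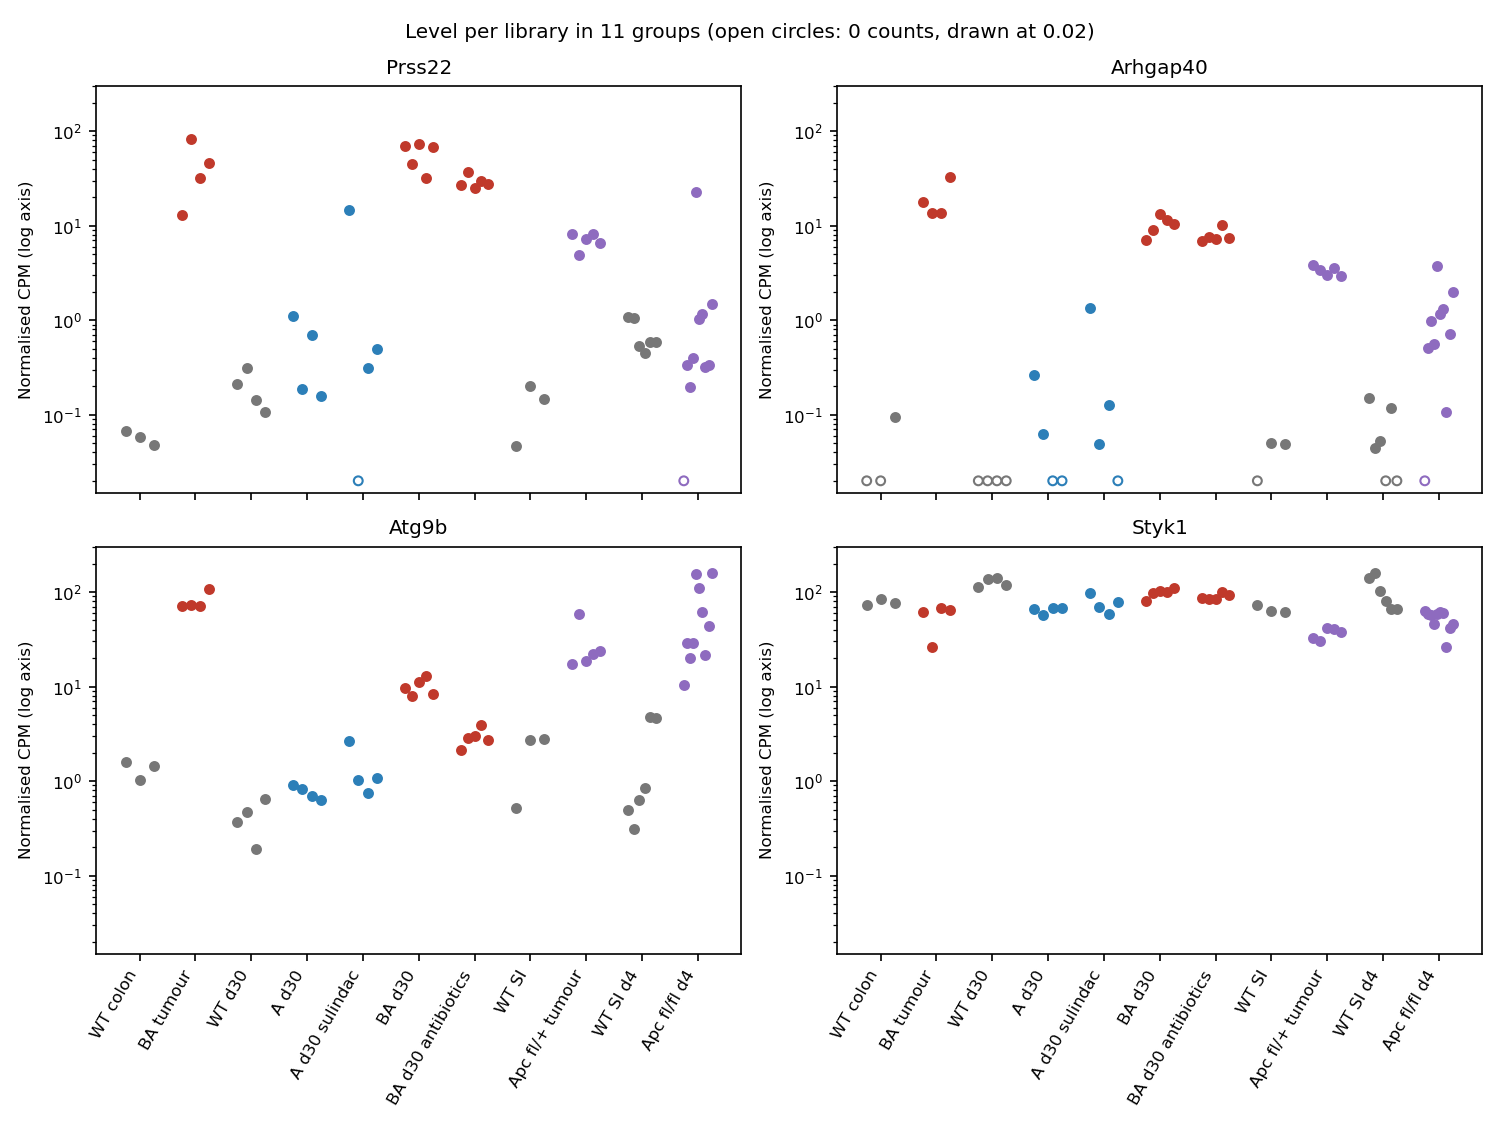
Normalised CPM (vertical log axis) of each gene in every library of the 11 groups, 1 point per mouse, with libraries at 0 counts drawn as open circles at 0.02. Prss22, Arhgap40 and Atg9b sit above WT in the BA groups and in Apc fl/+ tumours, whereas Styk1 lies between 26.03 and 159 in every library.

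Prss22 had few reads in WT tissue and many in BA colon. In BA tumours 1 to 4 it was at 12.9, 82.2, 31.6 and 46.1 normalised CPM, against 0.0677, 0.0575 and 0.0477 in WT proximal colon. At day 30 it was at 69.9, 45.2, 72.9, 31.8 and 67.8 in BA mice and at 0.211, 0.314, 0.142 and 0.107 in WT mice. The groups did not overlap in either tissue, the log2FC values were 9.43 and 8.19, and these contrasts chose the gene, so the values are a description. In the tumour contrast 13.2% of all genes tested passed an adjusted p of 0.05, and at day 30 it was 55.1%. The tumour mean was 0.752 times the day-30 mean, and all 5 day-30 values lay within the range of the tumours.

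Arhgap40 had at most 2 counts in either WT group of the colon. It was at 17.8, 13.5, 13.6 and 32.4 normalised CPM in the tumours and at 0, 0 and 0.0953 in WT proximal colon, which is 1580 against 2 counts and a ratio of 735 (95% interval 203 to 6072). At day 30 it was at 6.97, 8.98, 13.2, 11.5 and 10.4 in BA mice and had 0 counts in all 4 WT mice, which allows up to 0.0389 CPM over the group. Against a floor of 3 counts over the WT group, the BA level was at least 241-fold higher. The tumour mean was 1.89 times the day-30 mean.

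Atg9b was the member whose normalised CPM differed most between BA colon at day 30 and BA tumours, but WT colon of these sets differed too. The tumours held 70.5, 72.9, 70.4 and 107 normalised CPM and WT proximal colon 1.59, 1.04 and 1.43, log2FC 5.89. At day 30, BA mice held 9.69, 8.02, 11.1, 12.8 and 8.41 and WT mice 0.369, 0.471, 0.189 and 0.642, log2FC 4.60. The groups did not overlap. The tumour mean was 8.02 times that of BA colon at day 30, and the lowest tumour was above the highest day-30 library, a difference between sets that was not fitted. The WT ranges of the 2 sets did not overlap either. Over the mean of its own WT group, Atg9b was 59.3-fold in tumours and 23.9-fold at day 30. Prss22 was 750-fold and 297-fold on that measure, over WT groups with few counts.

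Styk1 was below WT in BA tissue, by a small step. It was at 62.2, 26.03, 67.1 and 64.3 normalised CPM in the tumours and at 72.8, 84.7 and 76.1 in WT proximal colon, log2FC -0.49 (SE 0.29, 95% interval -1.06 to 0.08), or -0.28 without tumour 2. Gm13394, a pseudogene whose reads also separated the WT from the other day-30 mice, was over 10 CPM in 3 of 4 tumours and 0 of 3 WT mice, and its part was not tested. At day 30 Styk1 was at 79.9, 97.0, 102, 99.4 and 111 in BA mice and at 113, 137, 142 and 118 in WT mice, log2FC -0.35. The gene was well expressed in every group, and per kilobase of exon its day-30 BA mean (16.7 CPM) was below that of Prss22 (43.4 CPM) and above those of Arhgap40 (4.63 CPM) and Atg9b (2.53 CPM).

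Whether these genes need BRAF activation was asked by comparing BA with A colon at day 30, which differ in the Braf allele. Atg9b and Styk1 were higher in BA mice at an adjusted p under 0.05 (edgeR quasi-likelihood test), where 21.7% of all genes tested were higher and 23.6% lower (45.3% in all), but the BA libraries also entered the contrast that chose the members. Prss22 and Arhgap40, with 35 and 5 counts in A mice, passed the low-count filter only through the BA group, so their differences are a description without a p. A mice held 1.11, 0.188, 0.691 and 0.157 normalised CPM of Prss22, each below every BA mouse, log2FC 6.80 (SE 0.45). Arhgap40 was at 0.261, 0.0627, 0 and 0, log2FC 7.00 (SE 0.51), which rests on 5 counts in A mice and, from summed counts, on a ratio of 120 (95% interval 51.4 to 372). Without A replicate 1, which held the highest level, it was 8.61. Atg9b was at 0.912, 0.815, 0.691 and 0.629 and rose by log2FC 3.75 (SE 0.22, adjusted p = 8.7e-07). Styk1 was at 66.1, 56.8, 68.1 and 67.0, again below every BA mouse, with a smaller log2FC of 0.64 (SE 0.11, adjusted p = 0.00091). Gapdh, on the same chromosome and given below, was more spread in BA than in A mice. The part of this region in the Styk1 difference was not tested.

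BA mice with antibiotics and A mice took no part in choosing the members. In BA mice with antibiotics, Prss22 was at 27.1, 36.8, 24.9, 29.9 and 27.2 normalised CPM, Arhgap40 at 6.96, 7.59, 7.31, 10.1 and 7.47, Atg9b at 2.15, 2.85, 2.99, 3.94 and 2.76, and Styk1 at 86.3, 84.5, 84.5, 99.6 and 94.0. Against A mice without antibiotics, Atg9b rose by log2FC 1.96 (adjusted p = 0.00021) and Styk1 by 0.49 (adjusted p = 0.0041), where 14.8% of all genes tested were higher and 12.2% lower (27% in all). Prss22 and Arhgap40 differed by log2FC 5.79 and 6.60, values without a p because both passed the filter only through the treated BA group. None of the 4 genes overlapped between these groups, and the share of all genes without overlap was not counted. BRAF activation and antibiotics differ together here and cannot be told apart.

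**Figure D2:**
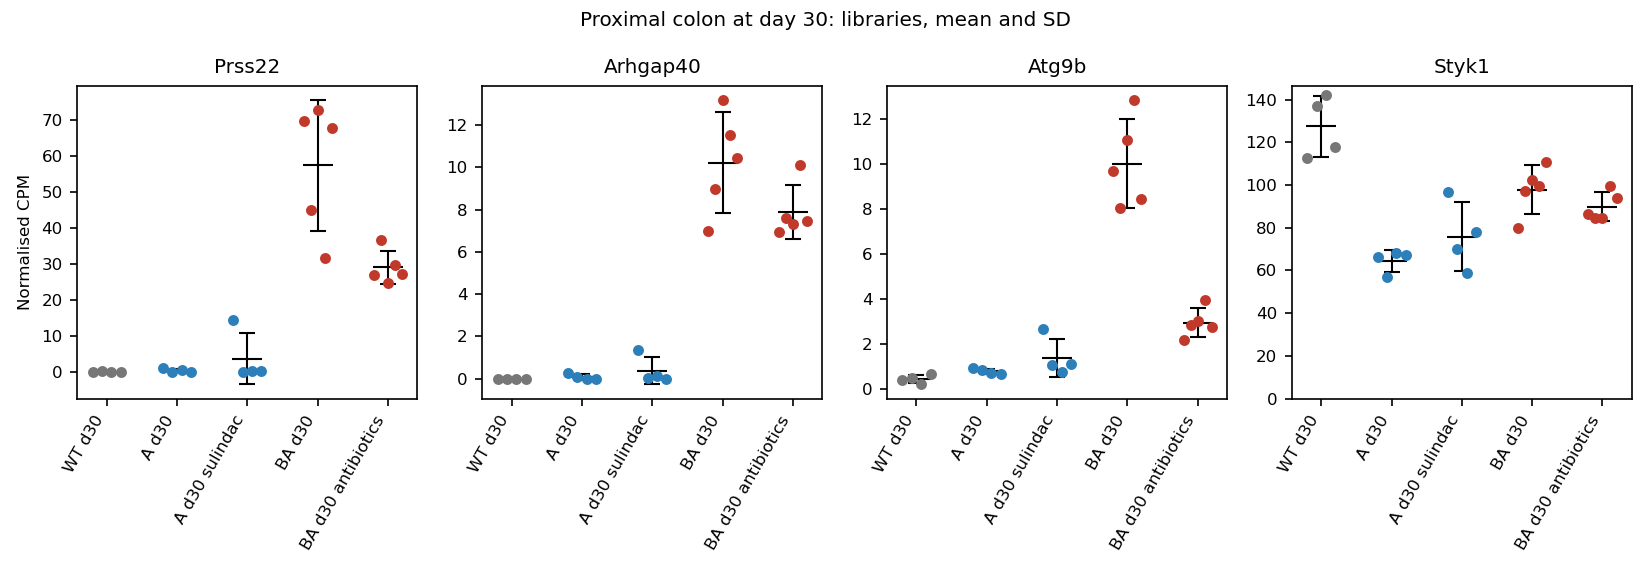
Normalised CPM (vertical axis, linear and separate for each gene) in the 5 groups of proximal colon at day 30, with 1 point per mouse and black marks for the mean and SD. Prss22 and Arhgap40 are high in both BA groups and low in WT and A mice, with A sulindac replicate 1 apart from its group for Prss22. Atg9b is high in untreated BA mice. With antibiotics it lies at 2.15 to 3.94, a range that includes A sulindac replicate 1 (2.63).

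The level of epithelial markers moved with these comparisons. Their summed level of the 10 epithelial markers ran from 26148 to 30294 normalised CPM in BA mice and from 23318 to 34450 with antibiotics, against 13679 to 21929 in A mice and 13711 to 16230 in WT mice. The part of this in the results was not tested. A list of 8 squamous markers summed to between 20.6 and 35.2 in BA mice and between 6.02 and 9.78 in A mice. Of 12 neutrophil markers, Ly6g alone was at 319 to 512 in BA mice, and the other 11 summed to between 4.25 and 11.9 there and to between 12.7 and 17.0 in A mice.

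Most ERK output genes were higher in BA mice. Of 20 genes, 15 were higher and 3 lower in BA than in A mice, with a median log2FC of 1.07 against -0.06 over all genes, of which 21.7% were higher and 23.6% lower. Dusp4, a phosphatase that acts on ERK, had the largest log2FC (3.57, adjusted p = 3.4e-07), Dusp6 rose by 2.28 (adjusted p = 1.2e-05) and Etv4, an ETS factor, by 2.18 (adjusted p = 5.5e-06), while Etv1 was lower at -0.99 (adjusted p = 0.0095). Of the 20 genes, 0 were called in A against WT mice, where 0.141% of all genes tested were called and 2 of the 4 members passed the low-count filter. The list was also raised without the Braf allele. In Apc fl/+ tumours 14 were higher and 1 lower than in WT small intestine (median 1.05), where 61.5% of all genes were called. In Apc fl/fl mice at day 4, 12 were higher and 3 lower (median 0.96), where 54.2% of all genes were called.

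Of 17 tested trypsin-fold serine proteases other than Prss22, 5 were higher and 3 lower in BA than in A mice, with a median of -0.20, shares near those of all genes (21.7% higher, 23.6% lower). St14 and Prss8, membrane proteases of epithelium, rose by 0.50 and 0.64 (adjusted p = 0.012 and 0.0037). Among 10 genes of the urokinase system and its inhibitors, 4 were higher and 2 lower. Plaur, the urokinase receptor, rose by 2.49 (adjusted p = 0.00014) and F2rl1, a receptor cleaved by trypsin-like proteases, by 1.17 (adjusted p = 0.00012), whereas Plau, urokinase itself, had log2FC 0.11 (adjusted p = 0.71) and Slpi, a protease inhibitor, fell by 1.66 on the log2 scale (adjusted p = 0.0068).

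Of 42 tested RhoGAP genes other than Arhgap40, 13 were higher and 13 lower, beside 21.7% and 23.6% of all genes, from Arhgap20 at -2.80 to Arhgap35 at 1.26. Of 35 autophagy genes other than Atg9b, 16 were higher and 1 lower, but the median was 0.21. Atg9a, the paralogue of Atg9b, rose by 0.57 (adjusted p = 0.026), Atg2a, a lipid transfer protein, had the largest log2FC at 1.28, and Becn1 was at 0.17 (adjusted p = 0.094).

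Loss of Alk5 alone was compared with WT colon at day 30, where 0.141% of the genes tested, 25 of 17713, passed the threshold (0.096% higher, 0.0452% lower). Prss22 and Arhgap40, with 35 and 5 counts in A against 15 and 0 in WT mice, did not pass the low-count filter, and without it their adjusted p was 0.57 and 0.60. Atg9b had log2FC 0.89, and its groups overlapped. This value carries no p, because with 32 counts in WT mice the gene passed the filter only through the A group. Styk1 was called, at 66.1, 56.8, 68.1 and 67.0 normalised CPM in A and 113, 137, 142 and 118 in WT mice, log2FC -0.96 (SE 0.12, adjusted p = 0.0094), with no overlap. The adjusted p rose to 0.061 without WT replicate 2 and to 0.062 without WT replicate 3.

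Most calls of this comparison lay close to Styk1. Within 10 Mb on each side of the gene on chromosome 6, 16 of 184 tested genes (8.70%) were called, Styk1 included, against 9 of 17529 (0.0513%) elsewhere. Gm44958, a processed pseudogene at chr6:131291603-131292338 that was chosen after its values were seen, was at 1.38 to 1.94 normalised CPM in A and at 0 to 0.158 in WT mice. Gm13394, annotated as a processed pseudogene on chromosome 2 and also chosen after its values were seen, was at 107 to 130 in A mice and at 0.428 to 0.785 in WT mice. It was also over 10 CPM in all BA, antibiotic and sulindac libraries of day 30, so that its reads and the genotype cannot be told apart in any comparison with WT at that time. Gm13394 ran from 101 to 239 in BA and from 107 to 130 in A mice. Gapdh, at chr6:125161715-125166467 and also chosen after its values were seen, ran from 29.4 to 138 in BA mice. It was at 18.9 to 30.8 in A and 112 to 145 in WT mice. In BA against A mice, 71 of 176 genes near Styk1 (40.3%) were called, beside 45.4% elsewhere. The part of this region in the Styk1 differences between BA and A mice was not tested. The neighbours of Styk1 that were tested, Magohb and Ybx3, had log2FC values of 0.41 and -0.34 in A against WT mice (adjusted p = 0.52 and 0.48).

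**Figure D3:**
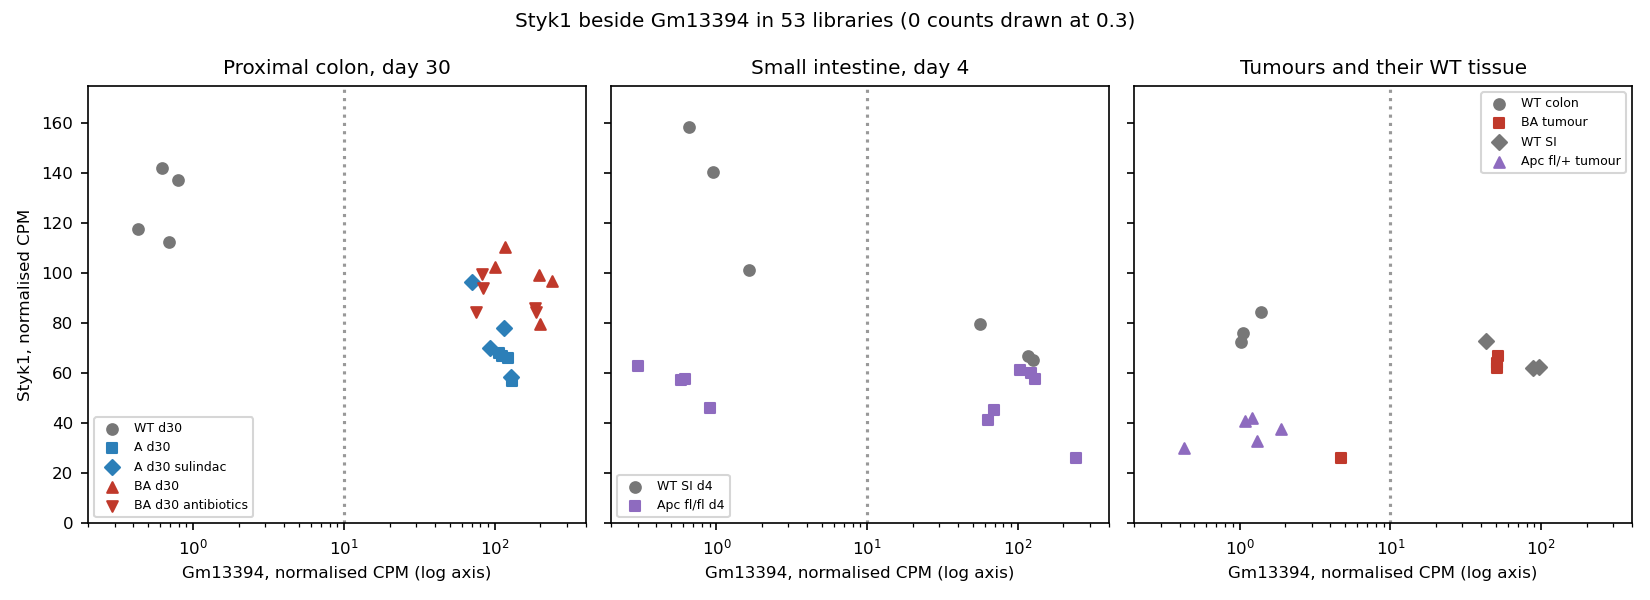
Styk1 (vertical axis, normalised CPM) against Gm13394 (horizontal log axis, normalised CPM) in the 53 libraries, 1 point per mouse, with a dotted line at 10 CPM and 0 counts drawn at 0.3. At day 30 all 4 WT mice lie left of the line with Styk1 at 113 to 142, and all other day-30 mice lie right of it.

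Sulindac, a non-steroidal anti-inflammatory drug, was given to A mice. Prss22 was at 14.5, 0, 0.316 and 0.491 normalised CPM and Arhgap40 at 1.34, 0.0492, 0.126 and 0, so that replicate 1 stood above the others in both. Neither gene passed the low-count filter. Without it, Prss22 had log2FC 2.82 against A mice (adjusted p = 0.92) and 4.25 against WT mice (adjusted p = 0.29), and Arhgap40 had an adjusted p of 0.92 and 0.36. Atg9b was at 2.63, 1.03, 0.757 and 1.09 and Styk1 at 96.7, 70.1, 58.6 and 78.1, with log2FC values against A mice of 0.85 and 0.22 (adjusted p = 1.0 for both). In that comparison 0 of 17568 genes were called by the quasi-likelihood test of edgeR, with 460 at an unadjusted p under 0.05, and DESeq2 called 5. Against WT mice, where 0.0507% of genes were called, Styk1 had log2FC -0.75 (adjusted p = 0.28). Atg9b had log2FC 1.72, a value without a p, because with 32 counts in WT mice it passed the filter only through the sulindac group. In replicate 1, Ly6g was at 13.2 and at most 1.14 in the other mice of the group, and the 8 squamous markers summed to 17.0, the highest of the group.

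Dependence on the microbiota was asked by comparing BA mice with and without antibiotics, where 13% of all genes tested were called, 8.5% lower and 4.53% higher with treatment. Atg9b fell by 1.78 on the log2 scale (SE 0.19, adjusted p = 0.00031), to 29.4% of the untreated mean, and every treated mouse was below every untreated one. Prss22 fell by 0.99 (SE 0.21, adjusted p = 0.011), to 50.8% of the untreated mean, although BA replicate 4 (31.8) was below the highest treated mouse (36.8). Fitting all 5 day-30 groups together ended the call of Prss22 (adjusted p = 0.34). Arhgap40 and Styk1 had log2FC values of -0.38 and -0.13 (adjusted p = 0.15 and 0.28), and their groups overlapped. The 8 squamous markers summed to between 9.08 and 19.2 with antibiotics and to between 20.6 and 35.2 without, and their part was not tested. Treated replicate 3 stood apart in fibroblast markers (7549, the others 1058 to 1477), macrophage markers (721, the others 225 to 282) and neutrophil markers other than Ly6g (49.4, the others 7.18 to 10.4), and without it Atg9b was at -1.79 and Prss22 at -0.94 (adjusted p = 0.00044 and 0.015). The untreated libraries of this comparison also entered the contrast that chose the members.

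Treated BA mice stayed far from WT mice in 3 of the 4 genes. The WT libraries also entered the contrast that chose the members. Atg9b and Prss22, with 32 and 15 counts in WT mice, differed by log2FC 2.84 and 7.22. These values carry no p, because both genes passed the filter only through the treated group. Arhgap40 was at least 194.5-fold higher against a floor of 3 counts over the WT group. Styk1 was lower at -0.48 (adjusted p = 0.0021), where 39.6% of all genes tested were called (21.8% higher, 17.8% lower). Of the 20 ERK output genes, 0 were higher and 2 lower with antibiotics than without, and the median was -0.02. Of all genes tested in that comparison, 4.53% were higher and 8.5% lower. Dusp6 fell by 0.72 on the log2 scale (adjusted p = 0.017). Of 35 autophagy genes, 7 were lower and 0 higher, among them Ulk1 at -0.27 (adjusted p = 0.045) and Atg14 at -0.56 (adjusted p = 0.0015).

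**Figure D4:**
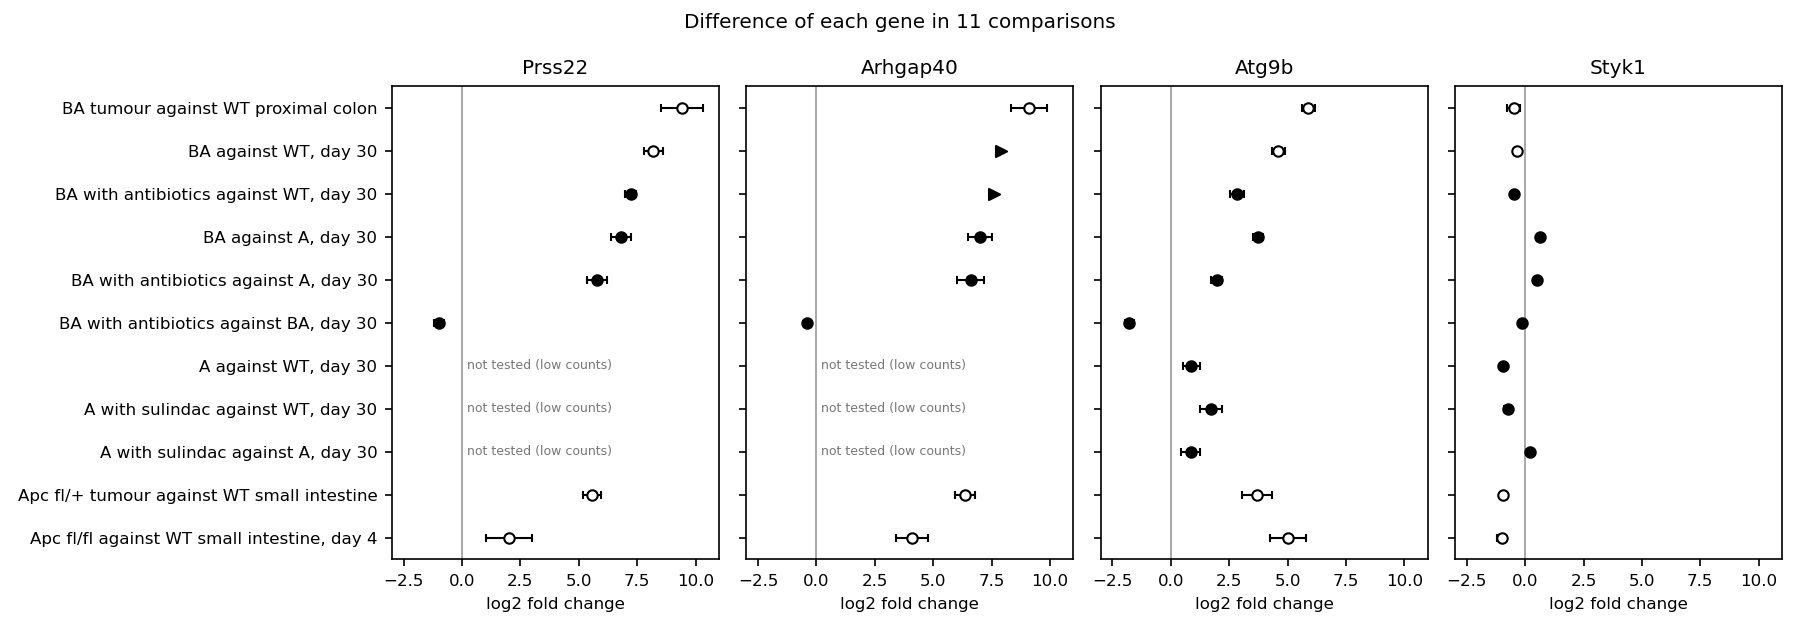
Log2 fold change (horizontal axis) of each gene in the 11 comparisons, with the standard error as bars. Filled points were tested, open points describe contrasts that chose the members, and triangles are lower bounds for Arhgap40 against WT mice with 0 counts, at least 241-fold and at least 194.5-fold. Filled points of Prss22 and Arhgap40 against A or WT mice are shown without a p. So are those of Atg9b in treated BA, A and sulindac-treated A against WT mice. The open points of Arhgap40 in both tumour sets rest on 2 WT counts each.

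Apc fl/+ tumours of the small intestine also held high levels of 3 of the genes. Prss22 was at 8.15, 4.94, 7.19, 8.22 and 6.49 normalised CPM in tumours 1 to 5 and at 0.0471, 0.202 and 0.146 in WT small intestine, log2FC 5.58. Arhgap40 was at 3.85, 3.37, 3.01, 3.54 and 2.94 against 0, 0.0506 and 0.0488, or 371 against 2 counts, a ratio of 95.3 (95% interval 26.2 to 790). Atg9b was at 17.2, 58.0, 18.6, 22.3 and 23.5 against 0.518, 2.73 and 2.78, log2FC 3.69. Styk1 was at 32.8, 30.18, 42.0, 41.1 and 37.9 against 73.1, 62.5 and 62.1, log2FC -0.94. No tumour overlapped with WT in any of the 4, in a contrast where 61.5% of all genes tested were called. The share of all genes without overlap was not counted there. The means of Prss22, Arhgap40 and Atg9b were 16.2%, 17.3% and 34.8% of those of BA tumours, across tissues and backgrounds, which was not fitted. These values are a description. Gm13394 was over 10 CPM in 3 of 3 WT mice and 0 of 5 tumours.

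Markers of gastric epithelium summed to between 13.4 and 682 normalised CPM in the tumours and to between 4.05 and 5.12 in WT tissue, mast cell markers to between 56.4 and 167 against 4.49 to 6.93, and 12 neutrophil markers to between 145 and 583 against 32.4 to 48.2. Their part in the levels of the 4 genes was not tested. In BA tumours the 12 neutrophil markers summed to between 143 and 504, and the 11 without Ly6g to between 36.7 and 111, against 9.44 to 16.3 in WT proximal colon. Lists that also did not overlap there included fibroblast (4224 to 5326 against 1546 to 2409), macrophage (703 to 2263 against 541 to 602), squamous (19.9 to 25.9 against 2.37 to 6.27) and colon markers (1150 to 5446 against 13035 to 24308), and their part was not tested.

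In Apc fl/fl small intestine at day 4, Atg9b was above every WT mouse in every Apc fl/fl mouse. It ran from 10.5 to 160 with a median of 36.7 normalised CPM in 10 Apc fl/fl mice and from 0.309 to 4.73 in 6 WT mice, log2FC 5.02 without overlap, in a contrast where 54.2% of all genes tested were called. Arhgap40 ran from 0 to 3.72 against 0 to 0.149, log2FC 4.10. Prss22 was at 22.5 in replicate 5 and at 0 to 1.47 in the other 9, against 0.451 to 1.09 in WT mice. Its log2FC of 2.01 turned to -0.14 without replicate 5. In that library the gastric markers summed to 157.5, against at most 2.1 in the other 9, and the squamous markers to 45.3. Styk1 ran from 26.2 to 63.0 against 65.5 to 159, log2FC -1.00 without overlap.

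Both groups of day 4 held libraries over and under 10 CPM of Gm13394. In the 3 WT mice under 10 CPM of Gm13394, Styk1 ran from 101 to 159, and in the 3 over it from 65.5 to 79.6. The log2FC of Styk1 was -1.21 among libraries under 10 CPM (4 against 3 mice) and -0.66 among those over it (6 against 3), and that of Atg9b was 5.71 and 4.61. This split was chosen after the data were seen.

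Reads of Atg9b can be shared with Nos3 (ENSMUSG00000028978), the endothelial nitric oxide synthase gene on the plus strand of chr5:24364810-24384474, since their 3′ ends overlap by 294 bases, or 7.45% of the exons of Atg9b. The library kit does not mark strand, so reads of that stretch cannot be told apart. Nos3 itself was at 7.01, 5.25, 7.36 and 9.87 normalised CPM in BA tumours and at 1.80, 2.42 and 1.76 in WT proximal colon. Between BA mice and BA mice with antibiotics Nos3 ran from 2.61 to 5.45 and from 2.30 to 10.0. Of the 36-base words of the exons, 6.51% of Atg9b, 1.24% of Prss22, 0.649% of Styk1 and 0% of Arhgap40 occurred in other genes. The log2FC in BA against A mice was also read for the nearest tested genes on each side. Prss30 was at 0.42 (adjusted p = 0.12) beside Prss22, Actr5 at -0.15 (adjusted p = 0.36) beside Arhgap40, and Abcb8 at -0.03 (adjusted p = 0.80) and Kcnh2 at -1.15 (adjusted p = 0.0040) beside Atg9b.

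Across the 11 group means of log2 CPM, Prss22 and Arhgap40 had the most similar patterns among the members, with a Pearson r of 0.97, and each was among the 5 genes most like the other of 23452. The remaining genes nearest to Prss22 were Pear1, Gm42759, Psca and 0710001A04Rik (r of 0.97), and those nearest to Arhgap40 were 9930038B18Rik, Rab31, Gm42759 and Slc4a11. Gm42759, Psca, 0710001A04Rik and 9930038B18Rik were low, with highest group means of 1.82, 1.45, 1.12 and 1.99 normalised CPM. Atg9b was most like Tatdn2, Hs3st1, Tnfsf18, 4930461G14Rik and Tnfrsf8 (r from 0.94 to 0.96), and Prkcd, Pacsin2, Atg9a and Disp2 were among the genes nearest to Styk1 (r from 0.90 to 0.91). The r of Atg9b was 0.62 with Prss22 and 0.77 with Arhgap40, and that of Styk1 was -0.15 with Prss22, -0.31 with Arhgap40 and -0.69 with Atg9b. The 11 points share control tissue, depth and composition, and these values are a description. With the 53 libraries as points, 1 or 2 of each set of 5 neighbours were shared, and with rank correlation (Spearman) likewise.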

How the data were processed

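RNA of whole intestinal tissue was sequenced as paired reads of 36 bases after TruSeq RNA v2 preparation. The authors trimmed the reads with Trim Galore 0.6.4, aligned them to GRCm38 with HISAT2 2.1.0, counted them on genes with featureCounts 1.6.4 and deposited raw counts as 1 table, without normalisation. The strand setting is not given in the sources used here. Symbols and positions come from GENCODE M21 of the same build, which named 55154 of 55421 identifiers. 0 columns were left out. Libraries were grouped by their labels.

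For each comparison its 2 groups were taken, low counts removed by filterByExpr, libraries scaled by TMM, and a quasi-likelihood model fitted (edgeR 4.0.16, two-sided). p-values were adjusted by Benjamini-Hochberg over every gene tested, with 0.05 as threshold. Standard errors are those of the fit. Members, lists and tests were chosen with earlier results of these data known. The 4 comparisons that chose the members carry no test for them. Named genes are the members, the 5 genes most like each, their nearest tested neighbours and any overlapping gene, Braf, Tgfbr1 and Apc, and of each list the largest and smallest change and up to 4 with a well-known role. Gm13394, Gm44958 and Gapdh were chosen after their values were seen, and Ddx3y was read as a Y-linked gene. Promoter sequences come from RefSeq, with an entry for 2 of the 4 members. Ratios of summed counts carry exact conditional 95% intervals. A group without counts was set to a floor of 3 counts.

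Alternatives changed the scaling (RLE or library totals), the tool (DESeq2 1.42.0, likelihood ratio in edgeR, voom in limma 3.58.1), the filter (none), the model (a block by replicate number, or the 5 groups of day 30 fitted together) or the samples (leaving out single libraries). Software ran under R 4.3.3 and Python 3.11.15 with pandas 2.3.3. The fits were tested on simulated data. The labels name no litters, so p-values measure the spread between these mice only. One gene list and one gene of the rule above are not reported here.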

Additional observations from a re-analysis of the deposited data

Results flagged for a closer look

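In 35 sets of values, each of 1 gene in 1 group of 4 to 10 mice, 8 values stood apart from the rest of their group by Dixon's criterion. For normally distributed values chance gives about 1 in 20 such sets, whereas the search used CPM on a linear scale. Prss22 was at 22.5 normalised CPM in Apc fl/fl replicate 5 (the others at most 1.47) and at 14.5 in A sulindac replicate 1 (the others at most 0.491). Arhgap40 stood apart in the same mice, at 3.72 (the others at most 1.97) and at 1.34 (the others at most 0.126), and at 10.1 in BA antibiotic replicate 4 (the others at most 7.59). Atg9b was at 107 in BA tumour 4 (the others at most 72.9) and at 58.0 in Apc fl/+ tumour 2 (the others at most 23.5). Styk1 was at 26.03 in BA tumour 2 (the others at least 62.2).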

How the results depend on the processing

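With another scaling, tool, filter or model, 282 recomputed values kept their direction and side of the threshold or moved by less than the spread between mice, 4 moved further, 3 gained a call, 2 lost one and 1 turned. Styk1 in A against WT mice kept its direction and lost its call with the replicate number as a block (log2FC -0.95, adjusted p = 0.057), and ran from -1.01 to -0.89 with single mice left out. Styk1 in sulindac-treated A against WT mice gained a call with DESeq2 (-0.74), the likelihood ratio test (-0.75) and the 5 groups of day 30 together (-0.76). Prss22 in antibiotic-treated against untreated BA mice lost its call with those 5 groups together (-1.00). Arhgap40 in BA against WT mice at day 30 moved to 10.13 (DESeq2) and 8.63 (voom), and in Apc fl/+ tumours to 5.94 (voom), fits that rest on 0 and 2 WT counts. Prss22 in Apc fl/fl mice turned to -0.18 with DESeq2 and moved to 0.40 with voom. With single mice left out it ran from -0.14 to 2.15, Prss22 in Apc fl/+ tumours from 5.18 to 6.02, Arhgap40 there from 5.82 to 6.74, and Arhgap40 in BA tumours from 8.37 to 11.63, the extremes without WT replicates 1 and 3. The cause of these shifts was not tested.

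Same-numbered mice are different animals, and their deviations correlated at -0.35 to 0.16. The block changed no other call of the 4 genes. Counts of genes called changed by over 1.5 times in A against WT mice (25, and 136 with DESeq2, 106 with the likelihood ratio test, 72 without the filter, 15 without WT replicate 2), with sulindac against A mice (0, and 5, 5 and 1, and 1 with the block) and against WT mice (9, and 110, 106 and 24, 2 with the block, 29 with 5 groups together, 4 to 18 with single mice left out), with antibiotics against BA mice (2172, and 1284 with the block, 1074 with 5 groups together, 1300 without antibiotic replicate 5), with antibiotics against A mice (4696, and 2781 with the block), in BA tumours (2527, and 3798 with DESeq2, 931 with the block, 696 without WT replicate 1) and in Apc fl/+ tumours (12650, and 8333 with the block). Library totals in place of TMM moved the median of all genes from -0.06 to -0.28 in BA against A mice, where Styk1 ran from 0.41 to 0.69 over all alternatives. Depth limits Prss22 and Arhgap40 in A and WT mice, where they did not pass the low-count filter.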
